A study of Drosophila melanogaster with 18 samples.

Results

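Synaptic transmission genes were examined in brains of virgin flies of both sexes, taken 3, 7 or 14 days after eclosion. A set of 42 genes was listed by function, namely transmitter synthesis and loading, vesicle fusion, calcium sensing, active zone, vesicle recycling, adhesion and scaffold, and their symbols were matched to the annotation symbols of the deposited table. Of these 42 genes, 40 were analysed among the 13439 genes of the table, and all 40 passed the filter on low values, a mean of at least 5 normalized reads over the 16 libraries, with which 12448 genes were tested. stnA and stnB were not analysed here. Normalized reads are the reads of a gene divided by 1 size factor per library.

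All flies were Oregon wild-type virgins raised on cornmeal agar, sexed within hours of eclosion, and each library came from a pool of 100 brains. The 3-day females (F3), 3-day males (M3), 7-day males (M7) and 14-day males (M14) had 3 libraries each, and the 7-day females (F7) and 14-day females (F14) had 2, because replicate 3 of F7 and replicate 1 of F14 were removed in the study as outliers. Group values below follow the order of the replicate numbers. A pooled library gives 1 value for many brains and cell types, so fewer neurons and less RNA per neuron cannot be told apart.

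Neurons release transmitter by filling vesicles, docking and priming them at the active zone, and fusing them with the membrane when calcium enters, after which the membrane is retrieved and vesicles are formed again. SNARE proteins on the vesicle and on the plasma membrane zip together to drive fusion, and neurexins and neuroligins join the membranes on the facing sides of the synapse. In the fly brain acetylcholine is the main excitatory transmitter, GABA is inhibitory, and glutamate is used by motor neurons and by groups of central neurons.

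The libraries differed in ways that touched these genes. They held 2924715 to 8664494 reads, and the 40 members together took 1.72% to 4.69% of them. The share was 3.98% to 4.69% in F3, 3.58% to 4.29% in F7, 2.66% to 3.60% in F14, 3.75% to 3.89% in M3, 3.43% to 3.52% in M7 and 1.72% to 3.24% in M14, so that the 3 ages of males did not overlap and the neighbouring ages of females did. Replicate 1 of M14 had the lowest level of 35 of the 40 members, and replicate 2 of F3 the highest level of 19. The same low library had the highest median of 140 scarce genes (gustatory receptor, cuticle, chorion and vitelline membrane genes), 47.8 normalized reads, while the F3 libraries had 1.12 to 2.63, and its 100 most abundant genes took 11.4% of the reads against 19.6% to 34.1% elsewhere. The part of this signal in the changes given below was not tested.

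A set of 3 female libraries stood apart as well, a feature chosen after the values were seen. Replicates 1 and 2 of F3 and replicate 1 of F7 held 38203 to 50545.0 normalized reads of cpx, the complexin that binds assembled SNAREs, while the other 13 libraries held 2389 to 14200.0. For 18 of 40 members (45%) each of these 3 libraries was above all the other 13, as it was for 6.61% of all genes tested and 28.2% of the 1135 genes averaging at least 1000. VGlut, CASK, Syx1A, Syt1, Syn and Snap25 followed cpx in this order. Replicate 3 of F3, of the same sex and age, was thus among the lower 13 for these 18 members. Without these 3 libraries only replicate 3 of F3 and replicate 2 of F7 are left in their groups. The F3v14 changes are given with and without them below.

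**Figure D1:**
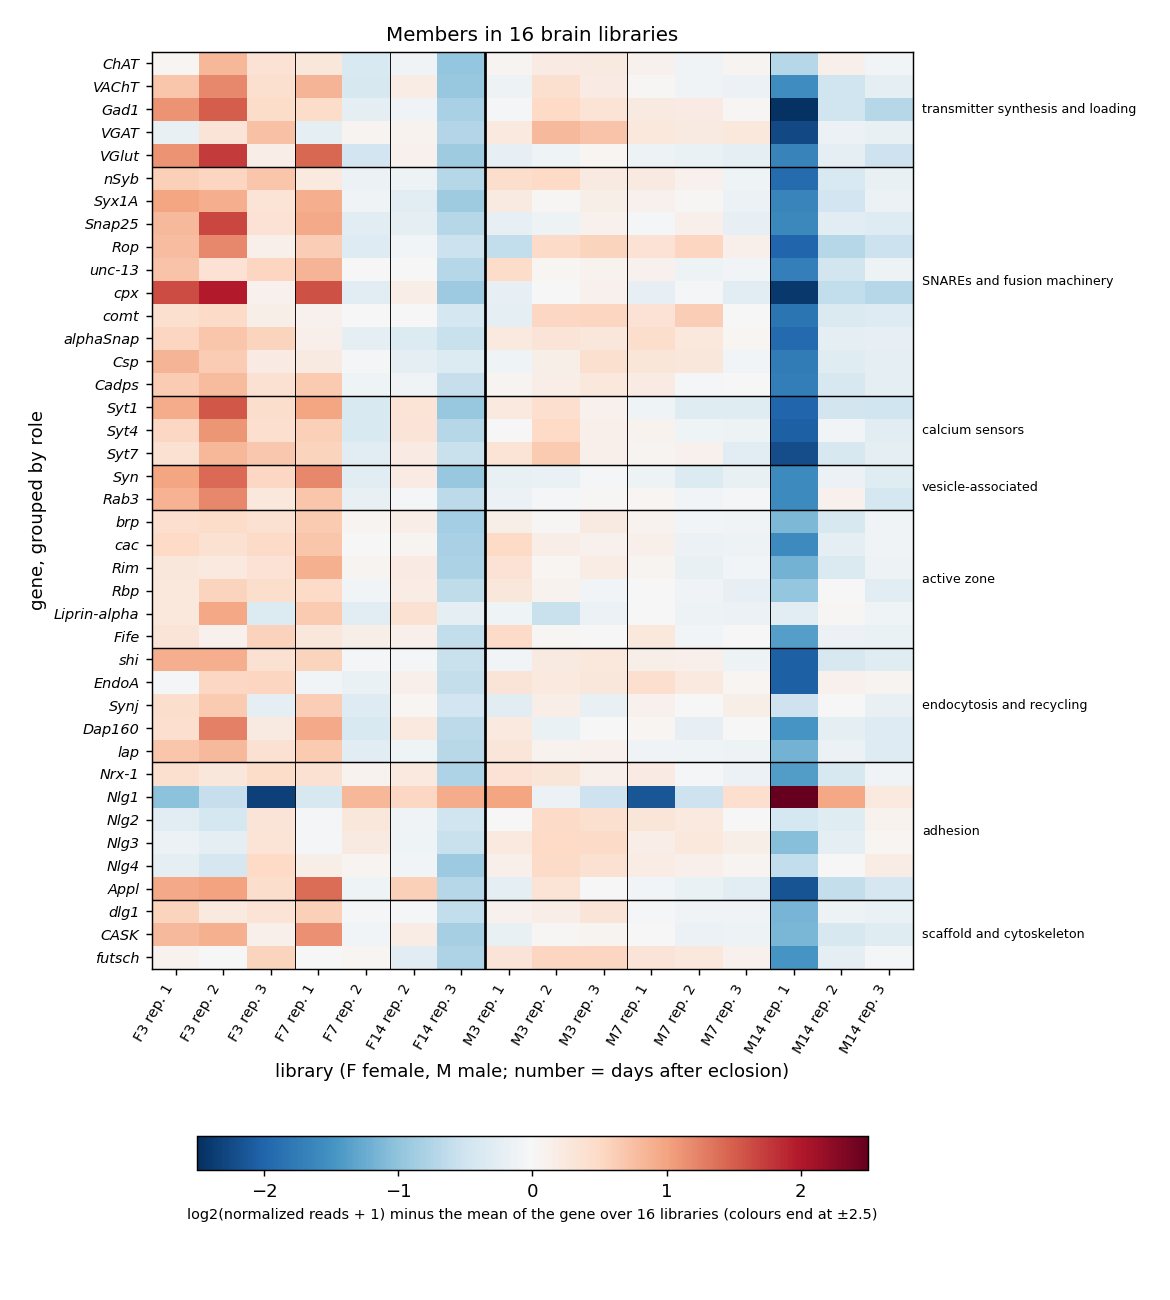
Each row is a member, grouped by role, and each column a library; colour is log2(normalized reads + 1) minus the mean of that gene over 16 libraries, red for higher and blue for lower, with colours ending at ±2.5. Replicate 1 of the 14-day males is the bluest column for 35 of 40 members, replicates 1 and 2 of F3 and replicate 1 of F7 are red for cpx, VGlut and Syn, and the row of Nlg1 runs opposite to the others.

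Cell type markers were read beside the members. The 5 neuronal markers (elav, fne, para, Rdl and onecut) were read in every library, and their summed level was 93824 to 109884 normalized reads in F3, 35530.4 to 75340 in F14, 72865 to 83173 in M3 and 17243 to 59384 in M14. The 6 glial markers, all above 0 in every library, summed to 5821 to 17623 in F3 and 3024 to 3316 in M14. Photoreceptor markers summed to 29822 to 71294 in F3 and 4901 to 16632 in F14, and fat body markers to 18333 to 55303 in F3 and 112947 to 156561 in F14 against 2024 to 3232 in M14. The 5 neuronal markers had a median log2 fold change of −0.89 in the change from F3 to F14 and −0.69 from M3 to M14, with 0 of 5 past the threshold in limma (0 and 1 at an unadjusted p under 0.05). Markers of other cells moved as well. From F3 to F14, 3 of 6 glial (median −1.29), 6 of 6 photoreceptor, 3 of 6 muscle and 4 of 4 gut markers were called lower and 5 of 6 fat body markers higher. From M3 to M14, 2 of 6 glial, 2 of 6 photoreceptor and 4 of 6 muscle markers were lower, and 1 fat body and 1 gut marker higher. From M7 to M14, 2 of 6 muscle markers and 1 of 4 gut markers were lower. The part of all these cells in the members' changes was not tested.

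Levels per kilobase of exon gave the order of the members. nSyb, the vesicle SNARE, came first with 2450 normalized reads per kilobase over the group means, and ranged from 609 to 3738 across libraries. It was not first in every group, since Syt1 (3593) lay above nSyb (3533) in F3 and Appl (2434) above nSyb (2419) in F7. Syt1, the calcium sensor of fast release, had 2016, followed by alphaSnap with 1875, Syx1A with 1869 and Snap25 with 1813, and these neighbours differed by far less than their spread between libraries. Gad1, which makes GABA from glutamate, led the transmitter genes with 1709. The leading members of the other roles were Rab3 of the vesicle-associated genes (773), cac, the presynaptic calcium channel (1003), shi, the fly dynamin (1381), Appl, the amyloid precursor-like membrane protein (1610), and dlg1, the PSD-95 homologue (462). Nlg4 (142), Liprin-alpha (68.8) and Nlg1 (17.9) closed the list. Exonic length came from the annotation rather than from the isoforms present, so the order of genes with long or alternative exons may be off.

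**Figure D2:**
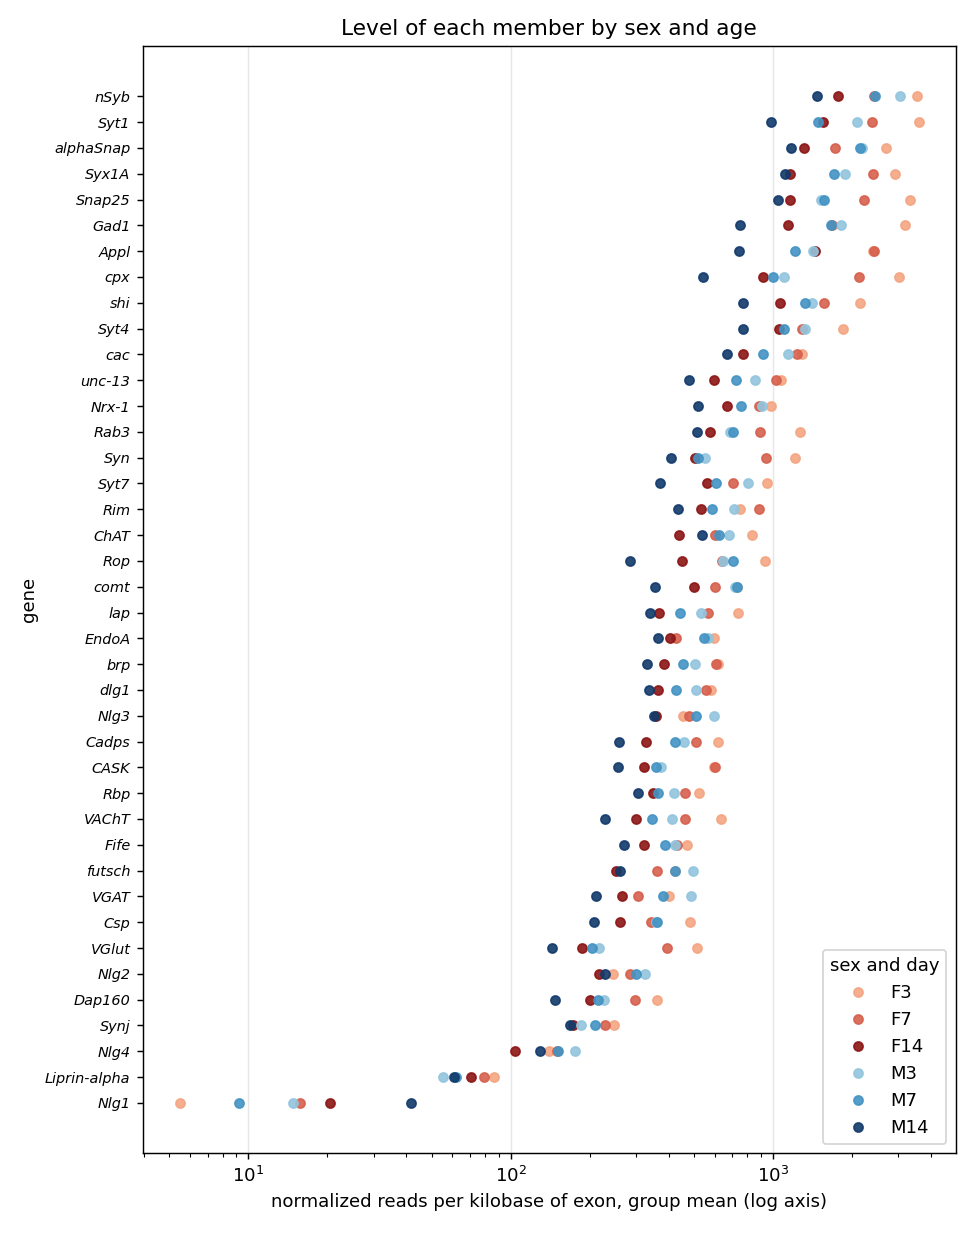
Group means of normalized reads per kilobase of exon (log axis) for the 40 members, ordered by their mean over groups; each point is 1 group of 2 or 3 libraries. The points of F3 lie farthest to the right for most genes and those of M14 farthest to the left, while for Nlg1 F3 has the lowest mean (5.48) and M14 the highest (41.7).

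The change from 3 to 14 days in females (F3v14) asked how brain expression ages in young females. Snap25, Syx1A and alphaSnap of the fusion machinery, Gad1, ChAT, VAChT and VGlut of transmitter supply, the vesicle proteins Syn and Rab3, and lap of the recycling group were lower at 14 days, 10 of 40 members, and Nlg1 was higher. The median log2 fold change of the members was −0.85, with 39 of 40 estimates negative, against a median of 0.15 for all genes tested. Of all genes tested 4.61% were called lower and 17.1% higher at an adjusted p under 0.1, and 16.1% of genes averaging at least 1000 normalized reads, to which 35 of the 40 members belong, were called lower, with a median of −0.59. The members' share of 25% lower therefore lay above that of all genes and nearer to that of other abundant genes, and no test between these sets was made. DESeq2 called 19 members in F3v14 and edgeR 4, beside 23.4% and 18.8% of all genes in either direction.

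Males were compared from 7 to 14 days and from 3 to 14 days. M7v14 had 6 of 40 members lower (Rop, comt, Gad1, Csp, alphaSnap and VGAT) and Nlg1 higher, against 6.54% of all genes lower and 14.7% higher. M3v14 had 9 members lower (VGAT, Syt7, Gad1, comt, Rop, alphaSnap, Csp, Cadps and Nlg3) and 0 higher, against 5.43% lower and 6.09% higher among all genes. Of genes averaging at least 1000, 17.4% were lower in M7v14 and 19.9% in M3v14, beside 15% and 22.5% of the members. The members' median log2 fold change was −0.66 in M7v14 and −0.89 in M3v14, and that of genes averaging at least 1000 was −0.52 and −0.59. edgeR called 0 members in both, beside 0% of all genes in M7v14 and 0.611% in M3v14. Fits of only the groups compared also called 0, beside 0.00803% and 0.345% of all genes. DESeq2 called 9 in M7v14 and 18 in M3v14, the latter beside 25.7% of all genes. The 9 have no share of all genes beside them here, so nothing is read from that count. Both male comparisons share the M14 libraries, so their counts are not independent of each other.

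**Figure D3:**
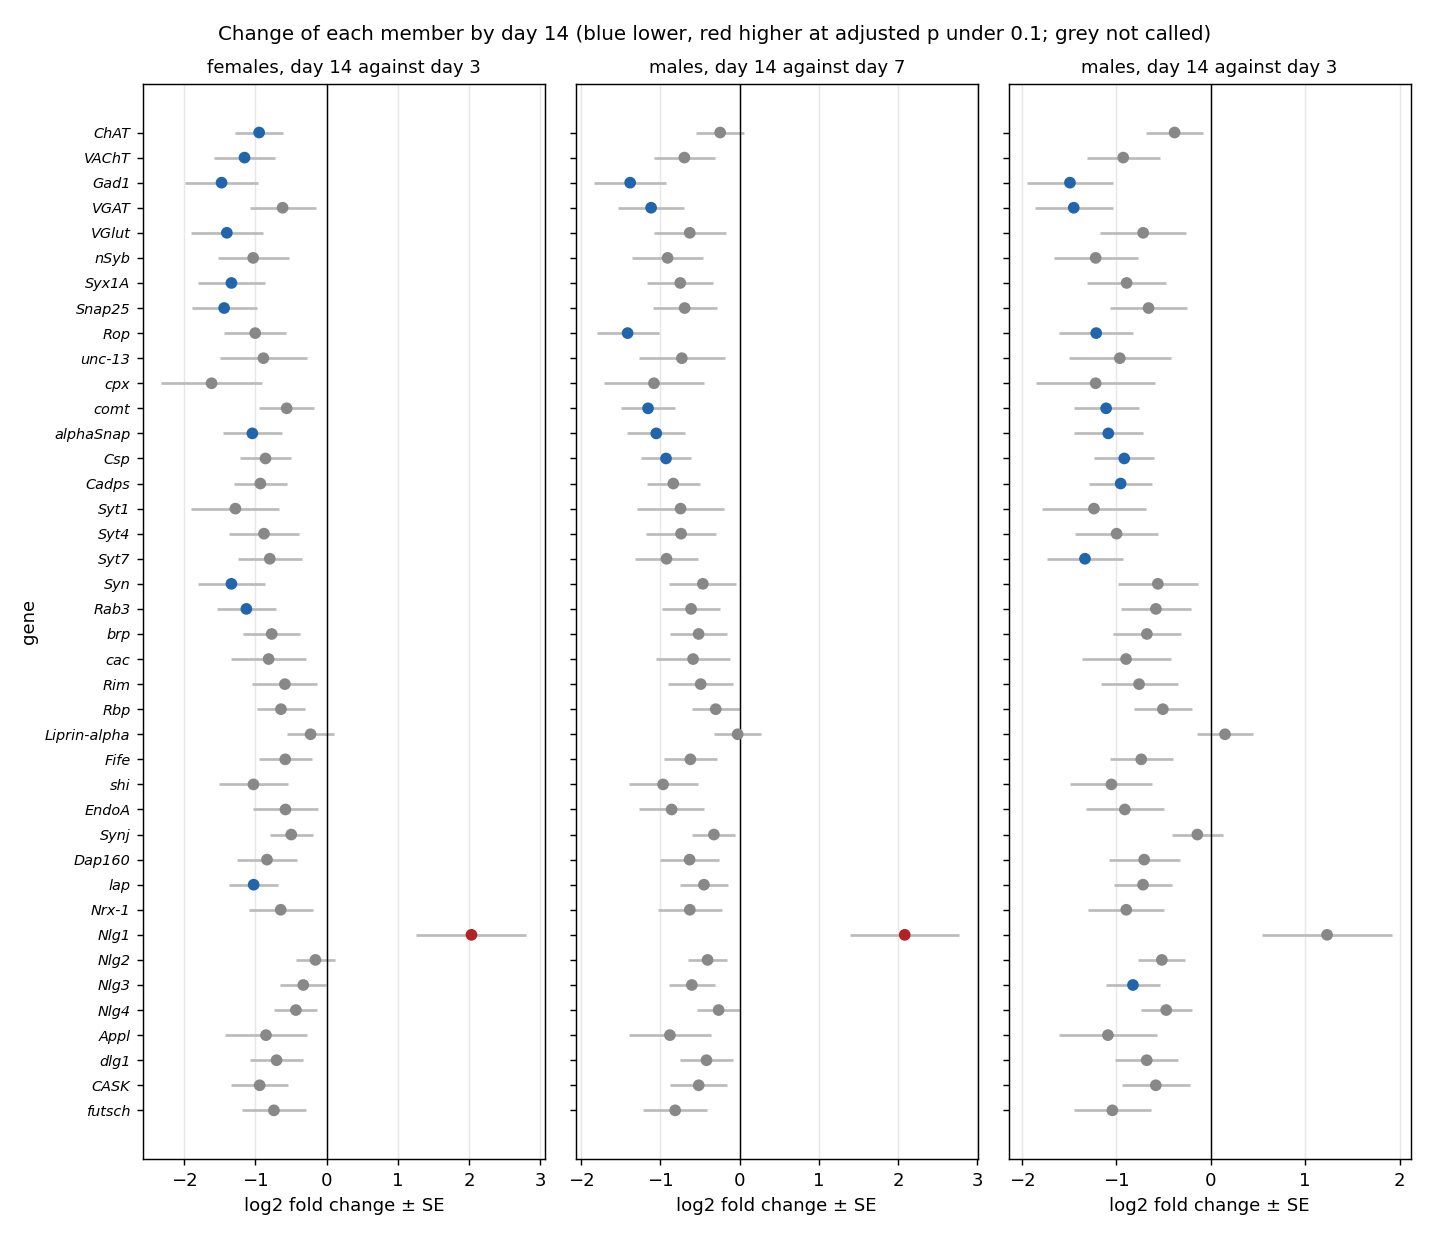
Log2 fold change ± SE of each member for 14- against 3-day females, 14- against 7-day males and 14- against 3-day males; blue points are lower and red points higher at an adjusted p under 0.1 (limma), and grey points did not pass. Nearly every point is left of 0, Nlg1 is right of it in all 3 panels, and 11, 7 and 9 members pass.

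These calls depended on single libraries. Of the 27 calls over the 3 comparisons 0 held in every fit that left out 1 library, and single calls held in 5 to 14 of the 16 such fits in F3v14, 7 to 12 in M7v14 and 4 to 9 in M3v14. The F3v14 count of 11 became 1 without F3 replicate 2, 2 without F3 replicate 1 and 25 without M14 replicate 1, where 30% of all genes were called. Without the 3 female libraries rich in cpx, F3 and F7 had 1 library each, so only sizes are given. The log2 fold changes were then −0.85 for Snap25, −0.92 for Syx1A, −0.90 for Gad1, −0.90 for ChAT and −0.79 for VAChT. They were −0.55 for VGlut, −0.61 for Rab3, −0.78 for lap, −0.88 for Syn, −1.0 for alphaSnap and 3.06 for Nlg1. The M7v14 count of 7 became 0 without M7 replicate 1 or 2 or M14 replicate 1 or 2, and 17 without M14 replicate 3, where 42.6% of all genes were called. The M3v14 count of 9 became 0 without M3 replicate 2 or 3, M7 replicate 2 or M14 replicate 1 or 2. It became 4 without F3 replicate 1, 5 without M7 replicate 3 and 25 without M14 replicate 3, where 8.21%, 10.4% and 34.4% of all genes were called. Leaving out M14 replicate 1, the library with the most signal of scarce genes, moved the members' median to −0.25 in M7v14 and −0.42 in M3v14. Calls among all genes fell as well. In F3v14 10.9% of all genes were called without F3 replicate 1 and 16.9% without F3 replicate 2, from 21.7%. The M7v14 fits with 0 members called 0% to 0.00803% of all genes, from 21.2%. In M3v14 the share was 0.0562% to 1.7%, from 11.5%, without M3 replicate 2 or 3, M7 replicate 2 or M14 replicate 1 or 2. Fits without an F14 library called fewer members and fewer of all genes in each of the 3 comparisons. They left 1 library in that group, so their counts are not listed here.

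The size of the change depended on the scaling of the libraries. When libraries were rescaled on genes averaging at least 1000, an alternative chosen after seeing the data, the members' median log2 fold change was −0.25 in F3v14, −0.13 in M7v14 and −0.28 in M3v14, and that of all genes 0.74, 0.72 and 0.84. Under that scaling Gad1, Syx1A, Snap25, Syn and Nlg1 passed in F3v14, Gad1, Rop, comt, alphaSnap and Nlg1 in M7v14, and Gad1, VGAT, alphaSnap and Syt7 in M3v14, which were 14 of the 27 calls. Quantile normalization gave medians of −0.17, −0.14 and −0.21, with 0, 3 and 1 members called. Gad1 was at −0.87, −0.85 and −0.88 in the 3 comparisons under the rescaling, past the threshold in each. Neither scaling turned the sign of a called member.

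Among the transmitter genes Gad1 had the largest fall of the members called in F3v14 and in M3v14. It stood at 12024, 15760.4 and 7564 normalized reads in F3, 7613 and 4753 in F7, 5223 and 3162 in F14, 5385, 7753 and 6955 in M3, 6461, 6365 and 5639 in M7, and 991, 3932 and 3349.8 in M14. All F14 libraries were below all F3 libraries and all M14 libraries below all M3 and M7 libraries, with replicate 1 of M14 far below the rest. Its log2 fold change was −1.47 ± 0.51 (SE) in F3v14 (adjusted p = 0.0628), −1.38 ± 0.45 in M7v14 (adjusted p = 0.0782) and −1.49 ± 0.45 in M3v14 (adjusted p = 0.0868, limma with Benjamini-Hochberg adjustment throughout), and it was 1 of the only 2 members, with alphaSnap, called in all 3. Over fits without 1 library these values ranged from −1.83 to −1.11, from −1.75 to −0.76 and from −1.86 to −0.87. The gene lies on chromosome arm 3L, positions 4074077 to 4088744 on the minus strand of release 6 of the genome, and shares no exonic base with another gene.

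VGAT loads GABA into vesicles and passed in males only, a difference between the sexes that did not pass its own test. It stood at 757, 1082 and 1425 normalized reads in F3, 738 and 907 in F7, 912 and 517 in F14, 1018, 1510.0 and 1407 in M3, 1039, 1002 and 1039.9 in M7, and 179, 776 and 757 in M14. The M14 libraries were below all M3 and M7 libraries, whereas the F3 and F14 libraries overlapped. Its log2 fold change was −1.45 ± 0.41 in M3v14 (adjusted p = 0.0798), −1.12 ± 0.41 in M7v14 (adjusted p = 0.0886) and −0.62 ± 0.46 in F3v14 (adjusted p = 0.382). Per kilobase, the ratio of VGAT to Gad1 was 0.0859, 0.0937 and 0.132 in the 3 female libraries rich in cpx and 0.215 to 0.308 in the other 13.

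ChAT makes acetylcholine and VAChT loads it, and both are read from 1 locus, where they share 606 exonic bases, 15.1% of ChAT and 8.54% of VAChT, so reads of the shared part can be counted for either or for neither. ChAT stood at 2515, 4319.8 and 3154 normalized reads in F3, 2962 and 1871 in F7, 2280.4 and 1247 in F14, 2551, 2796 and 2866 in M3, 2618, 2302 and 2552 in M7, and 1483, 2675 and 2322 in M14. The F3 and F14 libraries did not overlap, and M14 replicate 2 lay within the range of the younger males. ChAT fell by 0.94 ± 0.34 on the log2 scale in F3v14 (adjusted p = 0.0692) and did not pass in M3v14, at −0.38 ± 0.30 (adjusted p = 0.363).

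VAChT stood at 4178, 5949 and 3415 normalized reads in F3, 4637 and 1948 in F7, 2918 and 1343 in F14, 2349.7, 3407 and 2985 in M3, 2641, 2409 and 2332 in M7, and 877, 1812 and 2184 in M14. The F14 libraries were below the F3 libraries and the M14 libraries below those of M3 and M7. It fell by 1.15 ± 0.43 in F3v14 (adjusted p = 0.0823), and its log2 fold change in M3v14 was −0.93 ± 0.39 (adjusted p = 0.129). Reads of VAChT per read of ChAT came to 1.08 to 1.66 in F3, 0.921 to 1.22 in M3, 0.914 to 1.05 in M7 and 0.592 to 0.941 in M14.

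VGlut loads glutamate. It stood at 2895, 4416 and 1482 normalized reads in F3, 3560.1 and 953 in F7, 1426 and 717 in F14, 1155, 1223 and 1361 in M3, 1203, 1178 and 1133 in M7, and 415, 1124 and 928 in M14. The 3 female libraries rich in cpx were the only ones above 1482, and the M14 libraries were below those of M3 and M7. VGlut fell by 1.40 ± 0.51 in F3v14 (adjusted p = 0.0752). Without F3 replicates 1 and 2 and F7 replicate 1, with 1 F3 library left, the value was −0.55. In M3v14 it was −0.72 ± 0.46 (adjusted p = 0.272).

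Gad1 and ChAT can also be set side by side as markers of GABA and acetylcholine neurons. Per kilobase, Gad1 was 2.61 to 5.20 times ChAT in F3, 2.77 and 2.80 times in F7, 2.49 and 2.76 times in F14, 2.30 to 3.02 times in M3, 2.41 to 3.01 times in M7 and 0.728 to 1.60 times in M14. The M14 libraries were therefore below all others in this ratio, which does not depend on the size factor of a library. The ratio was computed after the values were seen and no test was made of it.

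**Figure D4:**
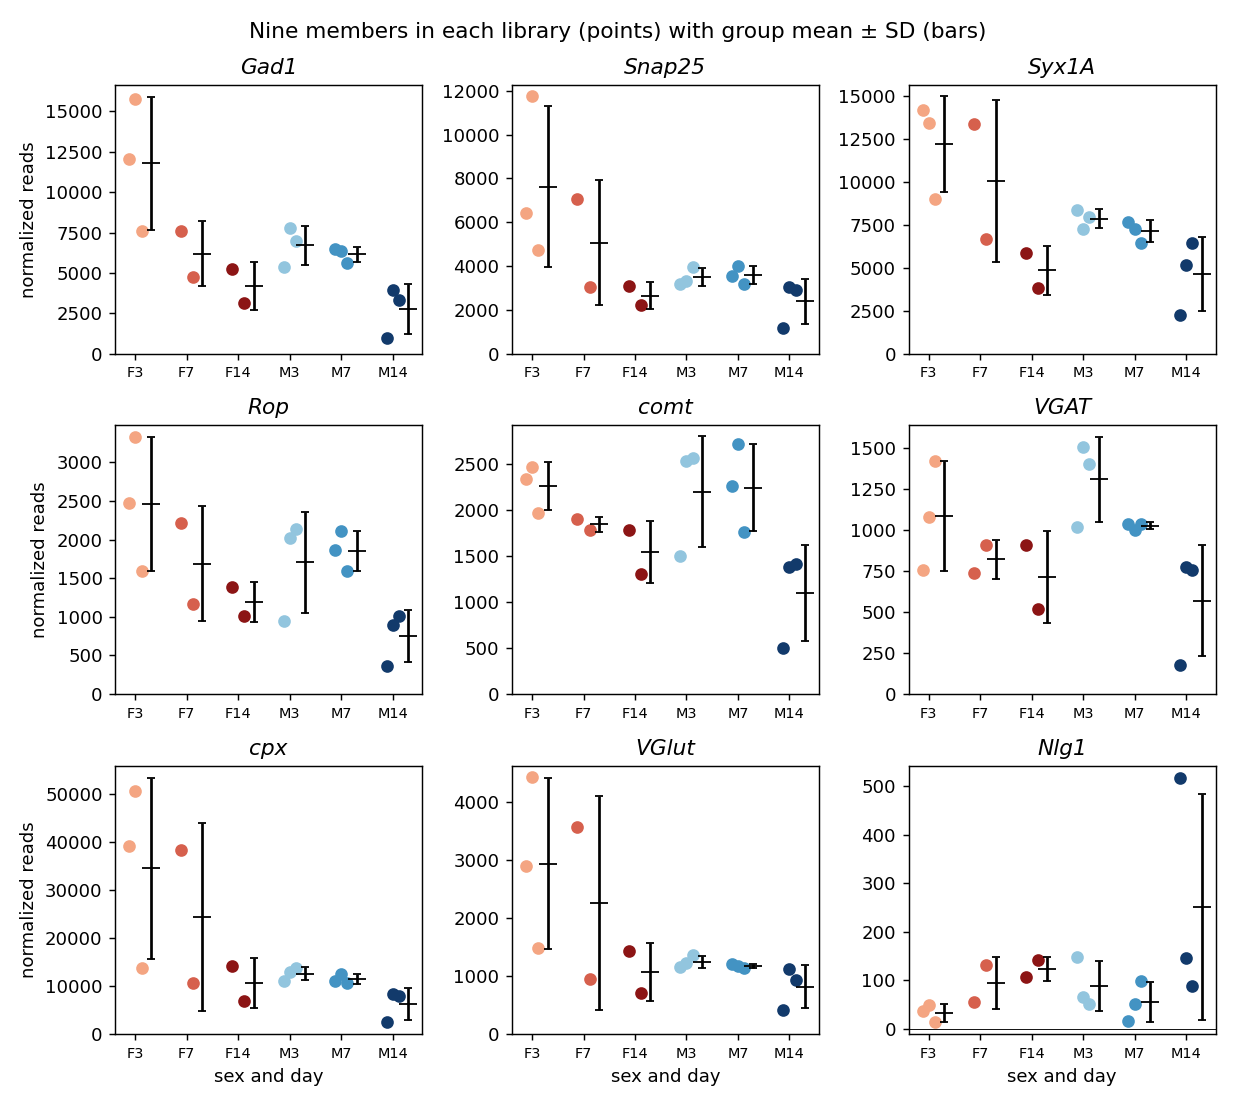
Normalized reads of 9 members in each library (points, by group) with the group mean ± SD beside them (n = 3, or 2 for F7 and F14). Gad1, Rop and comt have M14 as the lowest group, cpx and VGlut are high in 3 female libraries only, and Nlg1 is highest in replicate 1 of M14 at 517 normalized reads.

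Of the fusion genes that passed in F3v14 the SNAREs of the plasma membrane had the largest falls. Snap25, which brings a pair of helices to the complex, stood at 6416, 11740.5 and 4728 normalized reads in F3, 7084 and 3057 in F7, 3079 and 2227 in F14, 3195, 3338 and 3951 in M3, 3554, 4008 and 3184 in M7, and 1197, 3058 and 2923 in M14. The F3 libraries were above both F14 libraries, and replicate 2 of F3 was higher than every other library. It fell by 1.44 ± 0.45 in F3v14, the smallest adjusted p of any member (0.0453), and its log2 fold change was −0.69 ± 0.41 in M7v14 (adjusted p = 0.216) and −0.66 ± 0.41 in M3v14 (adjusted p = 0.258). The difference between the sexes in the change from 3 to 14 days was −0.78 ± 0.61 (adjusted p = 0.891), so the sexes were not shown to differ.

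Syx1A, the syntaxin that pairs with Snap25, stood at 14183, 13429 and 9008 normalized reads in F3, 13364 and 6695 in F7, 5861 and 3849 in F14, 8357, 7258 and 7944 in M3, 7682, 7262 and 6437 in M7, and 2267, 5147 and 6470.2 in M14. All 3 F3 libraries were above both F14 libraries. It fell by 1.33 ± 0.47 in F3v14 (adjusted p = 0.0664) and had a log2 fold change of −0.89 ± 0.42 in M3v14 (adjusted p = 0.161). It shares 10.7% of its exonic bases with the overlapping gene eIF4EHP.

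nSyb, the vesicle SNARE of the same complex, did not pass in any of the 3 comparisons. It stood at 14283, 13661 and 15219.6 normalized reads in F3, 11119 and 8579 in F7, 8616 and 5759.9 in F14, 12873, 13258 and 11055 in M3, 11077, 10179 and 8791 in M7, and 2479, 7287 and 8266 in M14. The groups F3 and F14 did not overlap, nor did M3 and M14, and the spread within M14 was wide. Its log2 fold change was −1.03 ± 0.50 in F3v14 (adjusted p = 0.17) and −1.22 ± 0.45 in M3v14 (adjusted p = 0.106). Per kilobase, nSyb was 0.851 to 1.04 times Syx1A in the 3 female libraries rich in cpx and 1.12 to 1.87 times in the other 13.

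Rop, the fly Munc18 that holds syntaxin ready for fusion, shared with comt the smallest adjusted p of a member in M7v14. It stood at 2469, 3327 and 1590.2 normalized reads in F3, 2216 and 1161 in F7, 1379.5 and 1005 in F14, 952, 2024 and 2133 in M3, 1866, 2108 and 1592 in M7, and 368, 889.7 and 1005 in M14. All M14 libraries lay below those of M7, but replicate 1 of M3 lay within the range of M14. It fell by 1.41 ± 0.39 in M7v14 (adjusted p = 0.0761) and by 1.21 ± 0.39 in M3v14 (adjusted p = 0.0915), and it did not pass in F3v14 (adjusted p = 0.133). Rop lies on 3L, positions 4136359 to 4138996 on the minus strand.

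comt and alphaSnap encode NSF and its adaptor, which pull spent SNARE complexes apart. comt stood at 2342, 2475 and 1969.5 normalized reads in F3, 1908 and 1790.2 in F7, 1787 and 1306 in F14, 1504, 2539 and 2570.2 in M3, 2262, 2719 and 1765 in M7, and 497, 1386 and 1419.8 in M14. Every M14 library lay below those of M7 and M3. It fell by 1.16 ± 0.34 in M7v14 (adjusted p = 0.0761) and by 1.11 ± 0.34 in M3v14 (adjusted p = 0.088), and in F3v14 its log2 fold change was −0.56 ± 0.38 (adjusted p = 0.335). It is 1 of 6 analysed members on the X chromosome, with cac, dlg1, futsch, Appl and shi.

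alphaSnap stood at 5359, 5968 and 5426 normalized reads in F3, 4052 and 3117 in F7, 2913 and 2525 in F14, 4398, 4657 and 4494 in M3, 5024, 4458 and 3850.1 in M7, and 959, 3112 and 3229 in M14. Neither sex had overlap between 14 days and 3 days. It fell by 1.04 ± 0.41 in F3v14 (adjusted p = 0.0966), 1.05 ± 0.37 in M7v14 (adjusted p = 0.0819) and 1.09 ± 0.37 in M3v14 (adjusted p = 0.0945). An antisense gene overlaps 15% of its exonic bases, and the strand setting of the counting was not given in the sources used here.

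Csp, a chaperone of Snap25 on the vesicle, stood at 1784, 1529 and 1134 normalized reads in F3, 1152 and 953 in F7, 833 and 778 in F14, 919, 1096 and 1306 in M3, 1206, 1196 and 938 in M7, and 292, 795 and 841 in M14. Values in M14 were below those of M7 and M3, and the F14 libraries below those of F3. It fell by 0.93 ± 0.32 in M7v14 (adjusted p = 0.0803) and by 0.92 ± 0.32 in M3v14 (adjusted p = 0.0972). Its value in F3v14 was −0.86 ± 0.35 (adjusted p = 0.114).

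Of the remaining fusion genes, Cadps, which primes dense-core vesicles, fell by 0.95 ± 0.33 in M3v14 (adjusted p = 0.0986) and had −0.93 ± 0.37 in F3v14 (adjusted p = 0.103). unc-13, the priming factor, did not pass, with −0.96 ± 0.54 in M3v14 (adjusted p = 0.223). cpx stood at 39169, 50545 and 13747 normalized reads in F3, 38203 and 10535 in F7, 14200.0 and 6816 in F14, 11048, 12788 and 13752 in M3, 11025, 12494 and 10608 in M7, and 2389, 8319 and 7753 in M14. Its estimate in F3v14 was the lowest of all members, −1.61 ± 0.71, and did not pass (adjusted p = 0.132), and its F3 libraries differed more than 3-fold among themselves. All 10 fusion genes had negative estimates in F3v14, M7v14 and M3v14, and 3, 4 and 5 of them passed.

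Among the calcium sensors only Syt7, linked to slow release and to vesicle supply, passed. It stood at 2638, 3590.2 and 3222 normalized reads in F3, 2995 and 1671 in F7, 2346 and 1379 in F14, 2588, 3201 and 2218 in M3, 2141, 2182 and 1684 in M7, and 437, 1540.3 and 1707 in M14. Values in M14 lay below all M3 libraries. It fell by 1.33 ± 0.40 in M3v14 (adjusted p = 0.0859) and had −0.92 ± 0.40 in M7v14 (adjusted p = 0.119) and −0.80 ± 0.45 in F3v14 (adjusted p = 0.238). Syt1 had −1.24 ± 0.55 in M3v14 (adjusted p = 0.146) and Syt4, which acts on the receiving side at the fly neuromuscular junction, did not pass (adjusted p = 0.143).

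Syn, the synapsin that tethers vesicles, stood at 6883, 9353 and 4979.7 normalized reads in F3, 7989.7 and 2902 in F7, 4042 and 1824 in F14, 3082, 3103 and 3439 in M3, 3199, 2764 and 3058 in M7, and 1152, 3151 and 2829 in M14. The F3 libraries were above both F14 libraries, and replicates 2 and 3 of M14 lay within the range of M3 and M7. It fell by 1.33 ± 0.47 in F3v14 (adjusted p = 0.0694) and its value in M3v14 was −0.56 ± 0.42 (adjusted p = 0.347). Rab3, the vesicle GTPase, fell by 1.12 ± 0.41 in F3v14 (adjusted p = 0.0782), with F3 at 4906, 6177 and 3228 and F14 at 2619 and 1706, and its value in M3v14 was −0.58 ± 0.37 (adjusted p = 0.274).

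The active zone genes passed in no comparison. They were brp, the ELKS protein of the release site, cac, Rim, Rbp, Liprin-alpha and Fife. In F3v14, M7v14 and M3v14 0 of 6 passed, beside 4.61%, 6.54% and 5.43% of all genes lower, which does not set these 6 apart. At an unadjusted p under 0.05 by limma, 0, 0 and 1 of 6 (Fife) passed, beside 30.6%, 34.8% and 30.2% of all genes. The median log2 fold changes of the 6 were −0.61, −0.505 and −0.71, beside −0.59, −0.52 and −0.59 for genes averaging at least 1000. brp stood at 8276, 8426 and 8069 normalized reads in F3, 9760.3 and 6461 in F7, 6878 and 3409 in F14, 6849, 6253 and 7223 in M3, 6530.0, 5879 and 5793 in M7, and 2811, 4652 and 5794 in M14. Its F14 libraries lay below those of F3, and its M14 libraries below those of M3. Its log2 fold change was −0.77 ± 0.40 in F3v14 (adjusted p = 0.199) and −0.68 ± 0.36 in M3v14 (adjusted p = 0.2). cac, Rim, Rbp and Fife, the last 3 of them scaffolds that hold calcium channels and vesicles at the release site, had estimates from −0.81 (cac) to −0.58 (Fife) in F3v14 and from −0.90 (cac) to −0.51 (Rbp) in M3v14. Liprin-alpha, which helps to assemble the active zone, was the only member besides Nlg1 with a positive estimate in M3v14, 0.15 ± 0.30 (adjusted p = 0.73). All 6 active zone genes were among the 20 members of greater exonic length. Lower were 2, 0 and 1 of these 20 in F3v14, M7v14 and M3v14, against 8, 6 and 8 of the 20 shorter members. Split at that length, genes averaging at least 1000 gave 10.7%, 2.01% and 6.92% lower among longer and 19.7%, 27.5% and 28.4% among shorter genes. No difference between roles was tested, and neither was the part of exonic length in it.

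Of the recycling genes lap, the fly AP180 that gathers clathrin, stood at 4738, 5099 and 3818 normalized reads in F3, 4577 and 2412 in F7, 2733 and 1811 in F14, 3594, 3129 and 3139.8 in M3, 2763, 2731 and 2689.9 in M7, and 1285, 2653 and 2330.1 in M14. The F3 libraries were above both F14 libraries. It fell by 1.02 ± 0.34 in F3v14 (adjusted p = 0.0575) and had −0.72 ± 0.31 in M3v14 (adjusted p = 0.137). shi had −1.03 ± 0.49 in F3v14 (adjusted p = 0.163) and −1.05 ± 0.43 in M3v14 (adjusted p = 0.128). EndoA, Synj and Dap160 (endophilin, synaptojanin and intersectin) did not pass, with −0.58 for EndoA and −0.50 for Synj in F3v14, and Synj had the estimate nearest to 0 of the 5 in M3v14, −0.14 ± 0.27 (adjusted p = 0.72).

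Of the adhesion genes Nlg1 was the only member that rose. It stood at 35.9, 49.1 and 13.8 normalized reads in F3, 55.9 and 132 in F7, 106 and 141 in F14, 148, 66.5 and 51.1 in M3, 16, 51 and 99.4 in M7, and 517, 146 and 88 in M14. Both F14 libraries were above all F3 libraries, the M14 libraries overlapped those of M3 and of M7, and replicate 1 of M14 had more than 3 times the next highest value. It rose by 2.03 ± 0.77 in F3v14 (adjusted p = 0.0864) and by 2.09 ± 0.69 in M7v14 (adjusted p = 0.0787), and its log2 fold change in M3v14 was 1.23 ± 0.69 (adjusted p = 0.221). Without M14 replicate 1 the M7v14 value was 1.36 ± 0.69 (adjusted p = 0.417). The gene was scarce, with 17 to 427 reads per library, and the 140 scarce genes, whose median was 1.12 to 2.63 normalized reads in F3 and 47.8 in M14 replicate 1, were likewise lowest in F3 and highest in that library. The part of this signal in the rise of Nlg1 was not tested. Nlg1 lies on 3R, positions 7658247 to 7694874 on the plus strand.

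The other neuroligins, at 142 to 458 normalized reads per kilobase beside 17.9 for Nlg1, had negative estimates in F3v14, M7v14 and M3v14. Nlg3 stood at 2678, 2564 and 3781 normalized reads in F3, 2903 and 3478 in F7, 2756 and 2024 in F14, 3553, 4209 and 4129 in M3, 3342, 3559.6 and 3284 in M7, and 1435, 2523 and 3072 in M14. The M14 libraries were below those of M3, and the F3 and F14 libraries overlapped. Nlg3 fell by 0.82 ± 0.29 in M3v14 (adjusted p = 0.099) and had −0.33 ± 0.32 in F3v14 (adjusted p = 0.516). Nlg2 had −0.16 ± 0.28 and Nlg4 −0.43 ± 0.30 in F3v14 (adjusted p = 0.74 and 0.35). Nrx-1, the presynaptic partner of neuroligins, had −0.64 ± 0.45 in F3v14 (adjusted p = 0.344) and −0.90 ± 0.40 in M3v14 (adjusted p = 0.148). Appl had −0.85 ± 0.58 and −1.09 ± 0.52 in the same comparisons (adjusted p = 0.331 and 0.165).

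Of the 3 scaffold genes 0 passed in any comparison by limma, beside 4.61%, 6.54% and 5.43% of all genes lower in F3v14, M7v14 and M3v14. At an unadjusted p under 0.05, 1 of 3 passed in F3v14 and in M3v14, beside 30.6% and 30.2% of all genes. These 3 were also among the 20 members of greater exonic length. dlg1 had −0.70 ± 0.37 in F3v14 (adjusted p = 0.208), and futsch, the MAP1B-like protein of the presynaptic cytoskeleton, −1.04 ± 0.41 in M3v14 (adjusted p = 0.116). CASK, a scaffold that binds neurexin, had −0.94 ± 0.40 in F3v14 (adjusted p = 0.125). A noncoding gene on the same strand shares 2669 exonic bases with CASK, so its reads may be divided.

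The sexes were compared at each age. At 3 days (F3vM3) 0 of 40 members passed in limma, against 11.4% of all genes in either direction (3.04% higher in females and 8.34% lower). Of genes averaging at least 1000, 4.49% were higher and 0.176% lower. At an unadjusted p under 0.05, 4 members passed (10%, beside 23.3% of all genes). DESeq2 called 5 of 40 (beside 14.8% of all genes), Syn, VGlut and Snap25 among them, and edgeR 0. The members' median log2 fold change was 0.36 with 34 of 40 estimates positive, the median of all genes being −0.12 and that of genes averaging at least 1000 being 0.19, with 762 of 1135 positive. The 3 members with the smallest p were Syn at 1.09 ± 0.42 (adjusted p = 0.129), Snap25 at 1.03 ± 0.41 (adjusted p = 0.139) and VGlut at 1.10 ± 0.46 (adjusted p = 0.157), all higher in F3 than in every M3 library and none past the threshold. With the 3 female libraries rich in cpx left out, and only replicate 3 of F3 remaining, they were 0.64, 0.44 and 0.25. The neuroligins had the opposite sign, with Nlg1 at −1.42 ± 0.69, Nlg2 at −0.43 ± 0.25, Nlg3 at −0.42 ± 0.29 and Nlg4 at −0.39 ± 0.27 (adjusted p = 0.224, 0.309, 0.407 and 0.41).

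At 7 days (F7vM7) 0 of 40 members passed, against 0.0562% of all genes, with 0 at an unadjusted p under 0.05 and 0 by DESeq2 or edgeR. CASK had 0.63 ± 0.40, Syn 0.68 ± 0.47 and Appl 0.82 ± 0.58 (adjusted p = 0.732, 0.753 and 0.755), and replicate 2 of F7 lay within the range of M7 for CASK and Syn. Without the 3 female libraries rich in cpx, and with only replicate 2 of F7 remaining, the values were 0.022, −0.049 and 0.062. CASK stood at 6391, 6747 and 3962 normalized reads in F3, 8022 and 3455 in F7, 4119 and 2035 in F14, 3205, 3695 and 3810.3 in M3, 3599.6, 3292 and 3322 in M7, and 1653, 2759 and 2945 in M14. Replicate 1 of F7 was the highest library of all.

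At 14 days (F14vM14) 0 of 40 passed, against 0.329% of all genes, again with 0 at an unadjusted p under 0.05 and 0 by DESeq2 or edgeR, although 36 of 40 estimates were positive and their median was 0.34. All genes had a median of −0.12, and genes averaging at least 1000 one of 0.22, with 850 of 1135 positive. Rop had 0.77 ± 0.44, Syt7 0.78 ± 0.45 and Appl 1.00 ± 0.58 (adjusted p = 0.71 for each). Appl stood at 16758, 17512 and 11748 normalized reads in F3, 23002 and 8064 in F7, 13168 and 5339 in F14, 7322, 11046 and 8778 in M3, 8275, 7743 and 7192 in M7, and 1959.8, 5798 and 6492 in M14. Its F14 and M14 libraries overlapped. Over the 3 ages together the mean sex difference had 0 of 40 members past the threshold, against 2.4% of all genes, 6 at an unadjusted p under 0.05 (beside 18% of all genes), 6 by DESeq2 (beside 10.8%) and 0 by edgeR. The smallest p were those of Appl at 0.86 ± 0.32 (adjusted p = 0.191), Syn at 0.70 ± 0.26 (adjusted p = 0.194) and VGlut at 0.72 ± 0.28 (adjusted p = 0.207). Their values were 0.49, 0.30 and 0.12 without the 3 female libraries rich in cpx, with only F3 replicate 3 and F7 replicate 2 left in those groups. The largest estimate was that of cpx at 0.99 ± 0.39 (adjusted p = 0.211). Members on the X chromosome had a median of 0.26 and those on autosomes 0.32 in this mean difference.

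The earlier steps of age gave no call. In F3v7 0 of 40 passed, against 7.67% of all genes (6.93% higher and 0.739% lower). Of genes averaging at least 1000, 0% were higher and 1.06% lower. At an unadjusted p under 0.05 there were 0 members, beside 19.7% of all genes, and both count tests called 0. The members' median log2 fold change was −0.345, with 35 of 40 estimates negative. All genes had a median of 0.12, and genes averaging at least 1000 one of −0.2. Nlg1 had 1.53 ± 0.77 (adjusted p = 0.282), Gad1 −0.91 ± 0.51 (adjusted p = 0.339) and alphaSnap −0.65 ± 0.41 (adjusted p = 0.401). In F7v14 0 of 40 members and 0% of all genes passed, with 0 members at an unadjusted p under 0.05 and by both count tests, although 39 of 40 estimates were negative with a median of −0.55. All genes had a median of 0.06 there, and genes averaging at least 1000 one of −0.41, with 952 of 1135 negative. CASK had −0.86 ± 0.44, Syx1A −0.99 ± 0.51 and Nlg4 −0.59 ± 0.33 (adjusted p = 1 for each). In M3v7 0 of 40 passed, against 0.193% of all genes, likewise with 0 by the unadjusted p and both count tests. Nlg1 had −0.85 ± 0.69, Syt7 −0.41 ± 0.40 and Syt1 −0.49 ± 0.55 there (adjusted p = 1 for each), and the members' median was −0.14, beside −0.03 for all genes and −0.09 for genes averaging at least 1000.

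Whether the sexes differed in their change was tested with interaction terms. For 3 to 7 days 0 of 40 members passed, against 0.546% of all genes, with 1 (Nlg1) at an unadjusted p under 0.05, at 2.39 ± 1.04 higher in the female change (adjusted p = 0.282). For 7 to 14 days 0 members and 0% of all genes passed, with comt at 0.88 ± 0.54 and Rop at 0.97 ± 0.62 (adjusted p = 0.582 and 0.584). For 3 to 14 days 0 members and 0% of all genes passed, with VGAT at 0.84 ± 0.62 and ChAT at −0.56 ± 0.45 (adjusted p = 0.886 and 0.892). DESeq2 and edgeR called 0 members in each of the 3. A member called in one sex and not in the other was thus not shown to differ between them.

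A further 58 synaptic genes outside the 42 were read in the same fits. In F3v14 9 of them were lower and 1 higher, in M7v14 7 and 1, in M3v14 9 and 1, and in the other comparisons between groups 0. The lower genes were 15.5%, 12.1% and 15.5% of the list, beside 4.61%, 6.54% and 5.43% of all genes tested. Of genes averaging at least 1000 they were 16.1%, 17.4% and 19.9%, but not all genes of the list are that abundant. The calls of this list were not followed singly over the other fits. In M7v14 0% of all genes were called without M7 replicate 1 or 2, without M14 replicate 1 or with edgeR, so the list's M7v14 calls were lost there. Lower genes with the smallest p were caps, a leucine-rich repeat adhesion protein (−0.97 ± 0.29, adjusted p = 0.0378), Amph, the amphiphysin (−0.94 ± 0.29, adjusted p = 0.0424), and Snap24, a further SNAP-25-type SNARE (−0.80 ± 0.26, adjusted p = 0.048), in F3v14. Syngr, the synaptogyrin of the vesicle membrane, led in males, at −1.30 ± 0.37 in M7v14 (adjusted p = 0.0761) and −1.67 ± 0.37 in M3v14 (adjusted p = 0.0631), with 2264 ± 407 (SD, n = 3) normalized reads in M3 and 835 ± 479 in M14. Hsc70-4, which strips clathrin, had −1.10 ± 0.33 in M7v14 (adjusted p = 0.0761), fwe, a vesicle channel, −1.17 ± 0.39 in M7v14 and −1.39 ± 0.39 in M3v14 (adjusted p = 0.0787 and 0.0793), and Vha100-1, a subunit of the proton pump, −1.04 ± 0.31 in M3v14 (adjusted p = 0.0851).

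Magi, a scaffold with PDZ domains, was the higher gene of that list in all 3 comparisons, at 1.12 ± 0.39 in F3v14 (adjusted p = 0.0664), 1.24 ± 0.35 in M7v14 (adjusted p = 0.0761) and 0.99 ± 0.35 in M3v14 (adjusted p = 0.0999). Its level rose from 128 ± 30.4 normalized reads in F3 to 275 ± 32.8 in F14, and was 467 ± 246 in M14. Its group means were lowest in F3 and highest in M14, as for Nlg1, and the part of the scarce-gene signal in its rise was not tested. This 1 higher gene was 1.72% of the list, beside 17.1%, 14.7% and 6.09% of all genes higher in F3v14, M7v14 and M3v14. The medians of the 58 genes were −0.52, −0.41 and −0.57 in F3v14, M7v14 and M3v14, beside −0.85, −0.66 and −0.89 for the members.

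The members' share of reads and the signal of scarce genes are set side by side for each library. Libraries of F3 combined a share of 3.98% to 4.69% with scarce-gene medians of 1.12 to 2.63, and replicate 1 of M14 combined 1.72% with 47.8. Between these ends the order was mixed. M3 replicate 1 had the highest share of the males (3.89%) at a median of 15.0, F14 replicate 2 had more share than F14 replicate 3 (3.60% against 2.66%) at a higher median (18.4 against 17.5), F7 replicate 1 had 4.29% at 8.12, and M7 replicate 1 had 3.52% at 2.83.

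**Figure D5:**
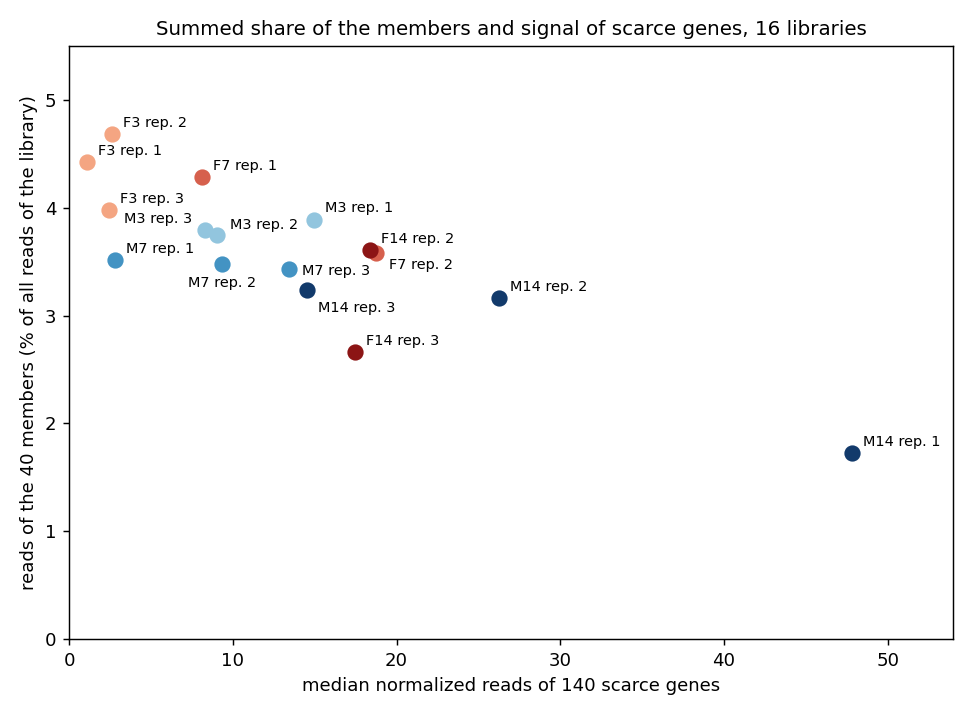
Each point is a library; the x axis is the median normalized reads of 140 scarce genes and the y axis the share of all reads that fell on the 40 members (%). Replicate 1 of M14 lies alone at 47.8 and 1.72%, and the 3 F3 libraries lie at the upper left.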

How the data were processed

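RNA of pooled brains was made into TruSeq RNA v2 libraries. Reads were trimmed with Trimmomatic 0.39, cleared of ribosomal RNA with Sortmerna and mapped with STAR 2.7.3a to the release 6 FlyBase genome. DESeq2 2.10 and R 2.14.1 are listed in the submitters' processing notes. How reads were counted per gene, and with which strand setting, was not given in the sources used here. The deposited signal values are read counts per gene that the authors divided by 1 size factor per library, so they are comparable between libraries and are not scaled to gene length.

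Of 18 samples in the labels 16 had a column, and 0 columns were left unused. Every value was a whole multiple of the smallest value above 0 of its library (tolerance 1e-06), which gave back 2924715 to 8664494 whole reads per library. Annotation symbols were matched for 13434 of 13439 genes by locus tag and 4 by synonym, and 13423 had an exonic length. Counts limit precision most for scarce genes such as Nlg1.

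The main test was limma 3.58.1 (R 4.3.3) with a trend on log2(normalized reads + 1) for 12448 genes with a mean of at least 5, with all 6 groups in 1 model, Benjamini-Hochberg adjustment over all genes of a comparison and a threshold of 0.1. Fold changes are on this scale, older relative to younger and female relative to male, and understate changes of low genes. The pools are labelled as replicates, with nothing on separate cultures, so p-values measure the spread between pools. edgeR 4.0.16 and DESeq2 1.42.0 on the recovered reads were alternatives, beside other pseudocounts, filters, scalings, sample sets, a replicate block and omitted libraries. Python 3.11.15 (pandas 2.3.3, numpy 2.4.6, matplotlib 3.10.9) made tables and figures.

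The members and lists were chosen with earlier results of these data known. Values in every library are given for up to 6 members per comparison with the smallest adjusted p past the threshold, or for the 3 with the smallest p where fewer than 3 passed, and the member with the highest level per kilobase of each role is named. Of the other synaptic genes up to 3 per direction and comparison are named. nSyb, brp, cpx, VAChT, Nlg3, Rab3 (for F3 and F14) and the ratios between genes lay outside this rule and were chosen for display after their values were seen. Syt1 and Nlg4, which came under it in M3v7 and F7v14, are not given by library.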

Additional observations from a re-analysis of the deposited data

How the results depend on the processing

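The counts of members called moved with most settings, and the cause was not tested. In F3v14 the 11 calls became 0 under quantile normalization, 5 after rescaling on abundant genes, 7 with only the groups compared, 30 without F7 replicate 2 and M14 replicate 1, 0 without the 3 female libraries rich in cpx, 19 with DESeq2 and 4 with edgeR. In M7v14 the 7 calls became 3 under quantile normalization and 0 with only the groups compared, without F7 replicate 2 and M14 replicate 1, or with edgeR. In M3v14 the 9 calls became 4 with a pseudocount of 0.5, 1 under quantile normalization, 18 with DESeq2, and 0 with only the groups compared, without F7 replicate 2 and M14 replicate 1, or with edgeR. In F3vM3 the 0 calls became 2 after rescaling, 4 with only the groups compared, 6 without F7 replicate 2 and M14 replicate 1, and 5 with DESeq2, beside 6.22%, 12%, 20.2% and 14.8% of all genes in the same fits, a larger share than that of the 40 members in each. In F7vM7 they became 2 (5%, beside 2.02% of all genes) without those libraries. For the mean sex difference they became 1 under quantile normalization and after rescaling, 7 without those libraries and 6 with DESeq2, where 2.75%, 1.65%, 13.3% and 10.8% of all genes were called. The rescaling and the omission of the 3 cpx-rich libraries were chosen after seeing the data. Of all genes in M7v14, 10.6% were called under quantile normalization, 0.00803% with only the groups compared and 0% with edgeR. In M3v14 these shares were 4.94%, 0.345% and 0.611%, with 6.43% for a pseudocount of 0.5 and 25.7% for DESeq2. Omitting F7 replicate 2 leaves 1 library in F7, and omitting the 3 cpx-rich libraries leaves 1 in F3 and 1 in F7. Nothing is therefore read from the counts of those fits.

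Leaving out 1 library gave 0 to 25 calls in F3v14, 0 to 17 in M7v14, 0 to 25 in M3v14, 0 to 7 in F3vM3 (7 without F3 replicate 3, 4 without M14 replicate 1, 3 without F7 replicate 1 and 2 without F7 replicate 2, where 19.2%, 15.9%, 13.5% and 13.4% of all genes were called), 0 to 1 in F3v7 (1 without F7 replicate 1 or M14 replicate 1, where 14.3% and 11.4% of all genes were called) and 0 to 7 for the mean sex difference (7 without F7 replicate 2 and 2 without F3 replicate 3, where 12.7% and 8.39% of all genes were called). Of the 27 calls 26 were kept by DESeq2, 4 by edgeR, 4 under quantile normalization and 14 after rescaling. Signs were followed for called members and, where fewer than 3 passed, for the 3 with the smallest p. Among these the sign turned for the F7vM7 Syn log2 fold change only. It was −0.049 without F7 replicate 1 and also −0.049 without the 3 cpx-rich libraries, and ranged from −0.049 to 1.412 (without F7 replicate 2) over single omissions. Other members were not followed, and for cpx and VGlut F7 replicate 2 lay below every M7 library.

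Replicate numbers did not pair the libraries. Deviations from group means had a median correlation of −0.05 over 35 same-numbered pairs and 0.01 over 71 others. With the replicate block, 3 members were called in F3v14, 0 in M7v14 and 1 in M3v14, beside 16.0%, 0% and 1.26% of all genes. Depth limited Nlg1 most, with 17 to 427 reads per library.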
